A study of Mus musculus with 13 samples.

Results

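The genes described here are 46 genes of the cell cycle and of DNA replication, taken in 3 groups: 8 that act in G1 and at the entry into S phase, 18 that act in DNA replication and nucleotide synthesis during S phase, and 20 that act in G2 and mitosis. They were followed in mouse embryonic stem (ES) cells on Affymetrix arrays, on which a gene is read by a probe set, a group of short oligonucleotides that together give 1 signal. A gene was measured through probe sets annotated with its symbol alone, and where there were several, the one with the highest mean signal stood for it. This gave 42 of the 46 genes, out of 8388 genes with such a probe set in the whole data set. The other 4 have none: Ccnb1, Cdc25b and Bub1b had no such probe set, and Tyms is read only by probe sets shared with its pseudogene Tyms-ps. No list was trimmed by its values.

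Cell division runs through G1, S phase, G2 and mitosis, driven by cyclin-dependent kinases (CDKs) and their cyclin partners. D-type cyclins with Cdk4, and cyclin E (Ccne1) with Cdk2, release E2F transcription factors, and E2F targets include the Mcm2 to Mcm7 subunits of the replicative helicase and the enzymes that make DNA precursors. Mitotic genes such as Cdk1, Ccnb2, Plk1, Aurka and Cdc20 are transcribed later in the cycle, in good part through promoters that carry CCAAT boxes and the cell cycle genes homology region (CHR). Mouse ES cells are known for a fast cycle with a short G1, which lengthens as they differentiate.

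Before the experiment, cells were grown with 500 pM LIF (leukaemia inhibitory factor), which holds them in the undifferentiated state. They were then plated at 10000 cells per ml in medium without LIF and kept for 3 days, and RNA came from the adherent cells alone. The S1 line was measured untreated (control), with 10 µM PD169316 and with 10 µM SB203580, both inhibitors of p38 kinases, stress-activated members of the MAP kinase family. The D4 line, which depends on feeder cells and was passaged without them before the experiment, was measured as control and with 10 µM PD169316. All groups had thus lost LIF, and no culture that kept LIF was used here. There were 13 arrays. On the U74A version, S1 had 2 control arrays, 2 with PD169316 and 1 with SB203580, and D4 had 1 of each kind. On the U74Av2 version, S1 had 2 arrays of each of the 3 conditions. The versions were scaled separately, so every ratio below was taken within a version.

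Promoter sequences show how the groups differ before any expression value is considered. In windows of 300 bases around gene starts in RefSeq (build GRCm38.p6, 250 bases before the start and 50 after), 40 of the genes had 46 windows. The E2F motif was searched as TTTCGCGC, TTTGGCGC, TTTCCCGC or TTTGCCGC, the CHR as TTTGAA and the CCAAT box as CCAAT, on both strands. An E2F motif lay in 33.3% of 21 S phase windows, 28.6% of 7 G1 windows and 5.56% of 18 mitotic windows, against 2.26% of 32851 windows of all genes. A CHR lay in 61.1% of mitotic windows, 14.3% of S phase windows and 0% of G1 windows, against 17.9% of all. A CCAAT box lay in 83.3% of mitotic, 57.1% of S phase and 42.9% of G1 windows, against 37.4% of all. A match is a string of letters and not a measured binding site.

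**Figure D1:**
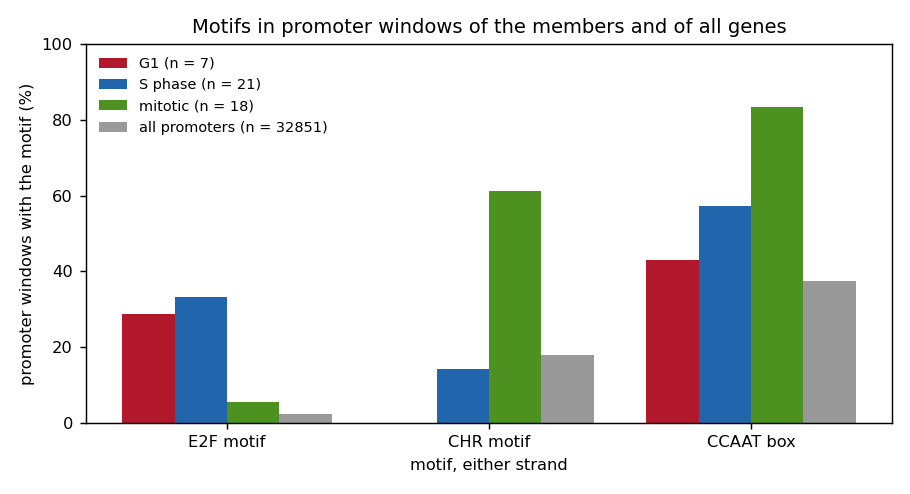
Share of promoter windows (%, vertical axis) that hold each motif on either strand (horizontal axis), for the G1, S phase and mitotic genes and for all genes, with n as the number of windows. The E2F motif is in 33.3% of S phase windows and the CHR in 61.1% of mitotic windows, against 2.26% and 17.9% of all windows.

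Windows are given for the 2 Mcm genes with the smallest p under PD169316 (Mcm5 and Mcm7), for the mitotic genes Cdc20 and Plk1, which had the lowest p values of their group under PD169316, and for Plk4, which led under SB203580. Each reads 5′ to 3′ along the gene's own strand, with motif letters in capitals. They lie at chr8:75109259-75109558 (plus strand), chr5:138171834-138172133 (minus strand, the upstream of 2 annotated starts), chr4:118437294-118437593 (minus strand), chr7:122159185-122159484 (plus strand) and chr3:40799701-40800000 (plus strand).
Mcm5: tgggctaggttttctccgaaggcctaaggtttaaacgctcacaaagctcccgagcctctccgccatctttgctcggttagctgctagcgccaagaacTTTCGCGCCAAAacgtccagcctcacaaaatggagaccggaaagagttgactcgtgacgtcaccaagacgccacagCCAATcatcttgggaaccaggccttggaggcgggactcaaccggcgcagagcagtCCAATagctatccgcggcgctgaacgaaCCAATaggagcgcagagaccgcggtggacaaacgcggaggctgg
Mcm7: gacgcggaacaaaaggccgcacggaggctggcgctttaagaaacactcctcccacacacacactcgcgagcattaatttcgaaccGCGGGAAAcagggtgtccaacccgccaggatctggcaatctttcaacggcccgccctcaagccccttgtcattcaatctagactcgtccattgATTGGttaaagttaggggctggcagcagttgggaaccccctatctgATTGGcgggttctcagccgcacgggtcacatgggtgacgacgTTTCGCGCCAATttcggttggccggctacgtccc
Cdc20: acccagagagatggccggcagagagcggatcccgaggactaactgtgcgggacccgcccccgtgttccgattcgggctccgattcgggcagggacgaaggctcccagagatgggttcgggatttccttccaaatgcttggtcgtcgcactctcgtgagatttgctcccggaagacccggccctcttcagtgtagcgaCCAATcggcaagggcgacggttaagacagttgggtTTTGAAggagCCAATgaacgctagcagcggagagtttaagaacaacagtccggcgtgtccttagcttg
Plk1: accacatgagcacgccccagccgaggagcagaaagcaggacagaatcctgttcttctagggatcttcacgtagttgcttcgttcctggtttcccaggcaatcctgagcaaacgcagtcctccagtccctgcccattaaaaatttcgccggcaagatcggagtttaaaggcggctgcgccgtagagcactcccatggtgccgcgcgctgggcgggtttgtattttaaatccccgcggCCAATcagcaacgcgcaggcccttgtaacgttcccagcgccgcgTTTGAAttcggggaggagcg
Plk4: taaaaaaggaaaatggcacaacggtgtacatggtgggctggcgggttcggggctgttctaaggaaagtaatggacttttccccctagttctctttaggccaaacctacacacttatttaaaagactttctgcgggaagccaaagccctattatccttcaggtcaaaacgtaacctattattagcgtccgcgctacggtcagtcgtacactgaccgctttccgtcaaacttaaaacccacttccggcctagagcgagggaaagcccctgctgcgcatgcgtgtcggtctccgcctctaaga
In Mcm5 a pair of E2F matches on opposite strands overlap from base -153 to form 1 capital run, and CCAAT boxes begin at bases -77, -22 and 7, counted from the start. In Mcm7 the E2F match at base 17 overlaps a CCAAT box that begins at base 24. Cdc20 has its CHR at base -18 between CCAAT boxes at -53 and -8. Plk1 has a CHR at base 31 and a CCAAT box at -14. The Plk4 window holds none of these letters, which says nothing about the factors that may act there.

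Signals are intensities in arbitrary units, scaled by the authors to a target of 300 per array. On U74A 41 of the genes had a probe set and 40 could be tested. On U74Av2 42 had one and 41 could be tested, and 39 were tested in both versions with the same probe set. Mcm6 is the gene that failed the filter (2 or more arrays of the fit with a signal of 100 or more) in both versions: it read 65.3 and 18.7 in the S1 controls of U74A, 11 and 13.2 with PD169316 and 17 with SB203580, 85.2 and 111 in D4, and 7 to 57.4 on U74Av2. No statement about Mcm6 RNA follows from those signals. Ccnd3 had a probe set on U74Av2 only, and the E2f1 probe set common to both versions failed the filter on U74Av2, so neither entered the combined test. Of the genes tested, Ccnd2 passed the filter on U74A through its 2 PD169316 arrays alone, and E2f1 entered the fits that include D4 through S1 arrays alone, so no difference is read from those values. For Cdk4, Mcm3 and E2f1 the brightest probe set differed between versions, and for Cdk4 and Mcm3 the combined test used the shared one. Arrays fell on 5 hybridization days: D4 on day 1, same-numbered S1 control and PD169316 arrays on shared days, and the second SB203580 array of U74Av2 on a day of its own. The S1 control arrays of day 3 had ratios of the 3-prime to the 5-prime Actb probe set of 3.31 and 3.21, against 1.46 to 2.25 on all other arrays, and results are given without them where that matters. The highest Gapdh ratio, 1.71, was that of the second SB203580 array of U74Av2, and the day 3 controls had 1.42 and 1.58.

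The first comparison asks what PD169316 did to cell cycle transcripts in S1 cells that had lost LIF. S phase genes lay lower in treated than in control cells, with the Mcm helicase genes in front. With both versions combined, the G1 and mitotic medians were also below 0, though a smaller share of those genes was lower. With both versions combined, 28 of 39 genes were lower, with a median log2 ratio of -0.19, where all 5369 probe sets tested had a median of 0.03 and 47.3% were lower. By group, 13 of 16 S phase genes (median -0.21), 4 of 6 G1 genes (median -0.24) and 11 of 17 mitotic genes (median -0.14) were lower. Here and below, the combined G1 counts include Ccnd2, which passed the filter on U74A through its PD169316 arrays alone. None of the 39 passed the combined limma test at an adjusted p of 0.05, which 1.88% of all probe sets passed. At an unadjusted p of 0.05, 7 genes were lower, where 5.35% of all probe sets were, and 0 were higher, where 6.3% were.

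Pairing each PD169316 array with the control of its number, line and version gave 5 pairs, 4 of S1 and 1 of D4. In all 5 pairs 10 of 39 genes were lower (25.6%, against 7.3% of all probe sets): Cdc25a, Mcm2, Mcm4, Mcm5, Mcm7, Tk1, Cdc20, Mad2l1, Plk1 and Aurka. In all 5 pairs 2 genes were higher, Cks2 and, by the dimmer probe set shared between versions, Cdk4 (5.13%, against 8.67% of all probe sets). The brighter Cdk4 set of U74Av2 was lower in both pairs of that version. Plk1 is listed by its brightest probe set, and a dimmer set was higher in the day 2 pair. The S phase median was -0.31 in the day 2 pair, -0.20 and -0.38 in the day 3 pairs of U74A and U74Av2, and -0.04 in the day 5 pair. The day 5 pair was thus close to 0, and without the other PD169316 array of U74Av2 the fitted S phase median of that version was 0.02 instead of -0.17. The day 3 arrays of both versions gave more similar ratios over all probe sets (correlation 0.431) than pairs of different days (0.0547 to 0.24), and the combined p-values, which treat the versions as independent, would be too small if these shared RNA.

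**Figure D2:**
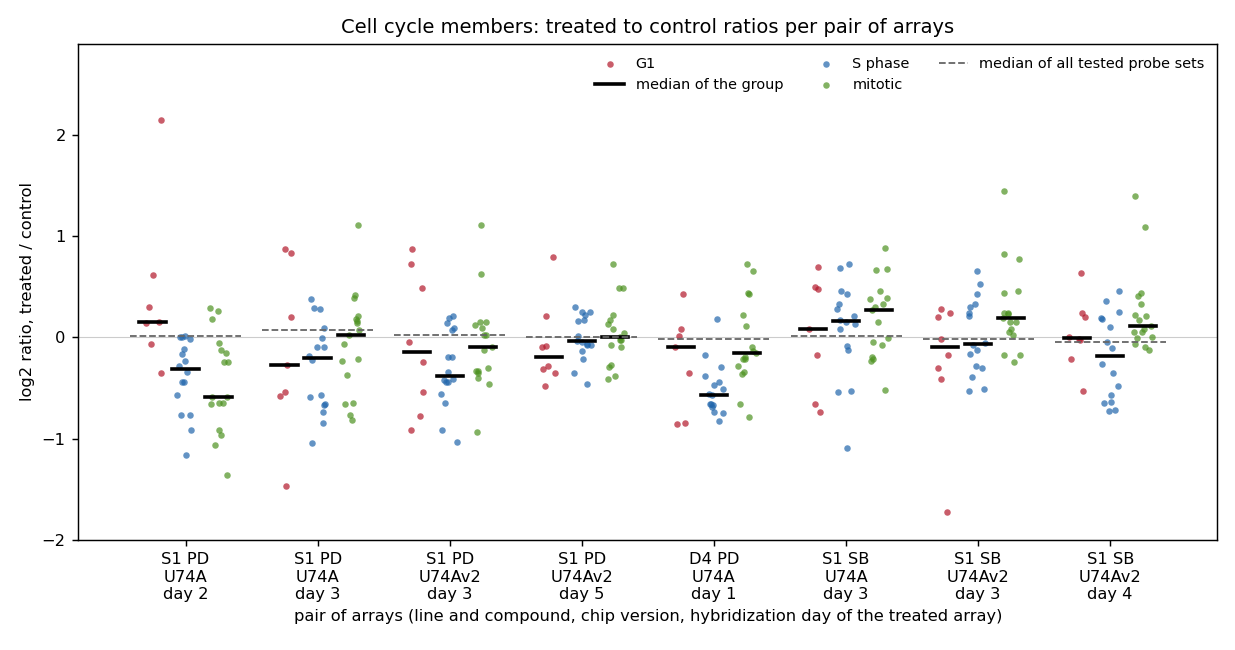
Log2 ratio of treated to control signal (vertical axis) for each tested gene, by its brightest probe set in that version, in 8 pairs of arrays (horizontal axis; PD, PD169316; SB, SB203580), coloured by group, with black bars at group medians and dashed lines at the median of all tested probe sets. The S phase median lies below that line in all 5 PD169316 pairs, from -0.56 in D4 to -0.04 in the S1 pair of day 5.

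The Mcm genes encode the ring-shaped helicase that unwinds DNA ahead of the replication fork. Mcm5 read 8488 and 4827 in the controls and 4129 and 3561 with PD169316 on U74A, and 5897 and 5226 against 3993 and 3799 on U74Av2. Every treated array lay below every control array of its version. The combined log2 difference was -0.63 ± 0.20 (SE, 2 control and 2 treated arrays per version), with an adjusted p of 0.127 in the combined limma test. With the replicate number as a block, which follows the shared hybridization days, the SE was 0.17 and the adjusted p 0.0345, so Mcm5 fell by 0.63 on the log2 scale in that fit. That call was lost when the correlation between the versions was allowed for (adjusted p = 0.206), and without the day 3 control arrays, 1 of which was the highest Mcm5 reading, the difference was -0.38 (adjusted p = 0.772). Without the second U74A control the difference was -0.83 (adjusted p = 0.0271 by limma).

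Mcm7 read 3429.9 and 3010.5 against 2057 and 1599 with PD169316 on U74A, and 2755 and 3242 against 1758 and 3081 on U74Av2. The groups were apart on U74A and overlapped on U74Av2, where the second treated array stood near the controls, though each treated array was below the control of its own pair. Its combined log2 difference was -0.59 ± 0.22 (adjusted p = 0.279, limma). Mcm4 read 1989 and 1808 against 1106 and 810.5 on U74A and 1787 and 1966 against 1412 and 1885 on U74Av2. It showed the same shape, with a combined difference of -0.60 ± 0.21 (adjusted p = 0.303, limma). Mcm2 read 2191 and 2574 against 1377 and 1736 on U74A and 2650.2 and 2707 against 1987 and 2329 on U74Av2. Its groups did not overlap in either version, and the combined difference was -0.47 ± 0.20 (adjusted p = 0.362, limma). Mcm3 read 1278 and 1658 against 861 and 973 on U74A and, through another probe set, 2925 and 2898 against 2178 and 2759 on U74Av2. Treated arrays were again below controls in both versions by these probe sets. The shared probe set read 1670.3 and 1566 against 1408 and 1717 on U74Av2, where its groups overlapped. Over both versions the shared set gave -0.36 ± 0.20 (adjusted p = 0.632, limma).

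**Figure D3:**
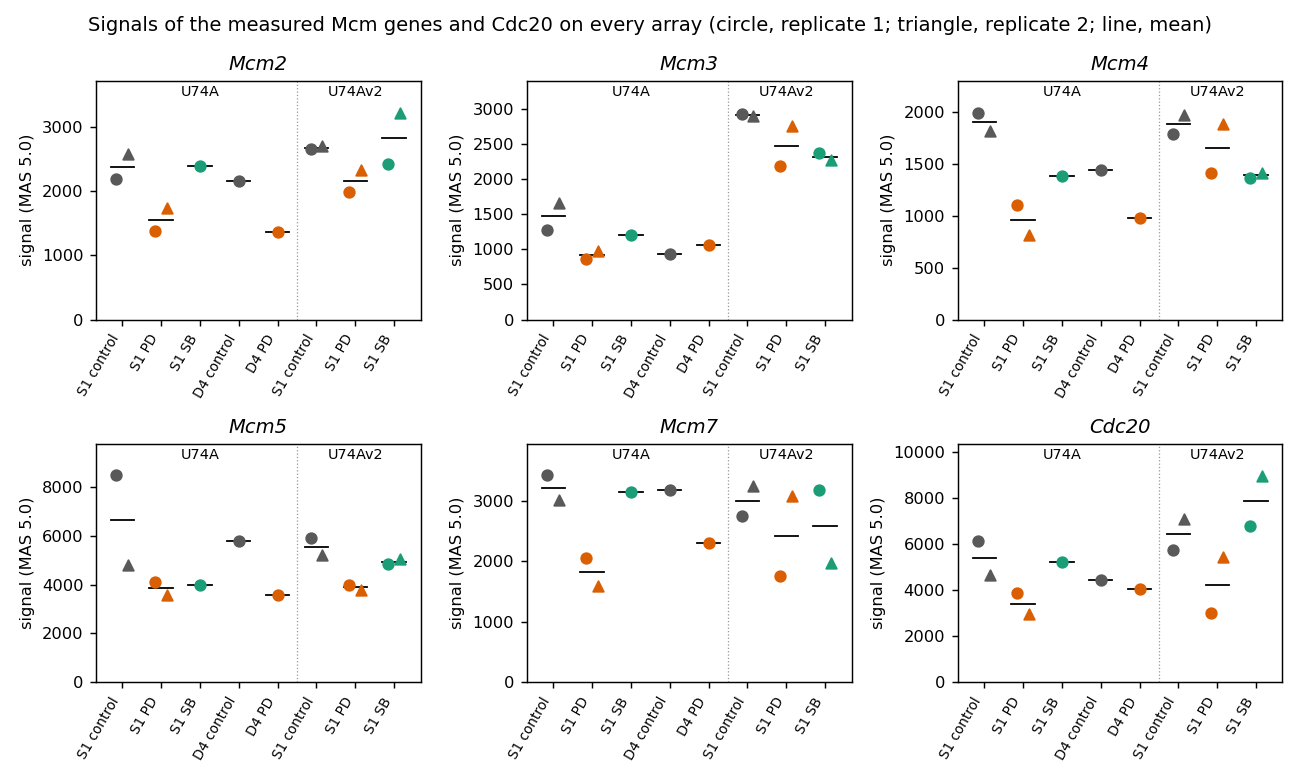
Signal (MAS 5.0 intensity, linear vertical axis from 0) of the 5 measurable Mcm genes and Cdc20 on each array, by line and treatment (horizontal axis; PD, PD169316; SB, SB203580), with U74A left and U74Av2 right of the dotted line and short lines at group means. Mcm2, Mcm3, Mcm5 and Cdc20 are lower on every PD169316 array of S1 than on the controls of the same version. Mcm3 is shown on U74Av2 by its brighter probe set, and the dimmer set overlapped there. Signal levels of different genes or versions are not comparable.

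Other S phase genes had smaller differences. Pcna, the sliding clamp of DNA polymerases, read 2423 and 2312 in the controls and 2075 and 2316 with PD169316 on U74A, and 2556 and 2059 against 1888 and 2318 on U74Av2. Its groups overlapped in both versions and the combined difference was -0.12 ± 0.19 (adjusted p = 0.874, limma). Rrm2, the regulated subunit of ribonucleotide reductase, read 856 and 975 against 910.3 and 799 on U74A and 887 and 1117 against 933 and 1303 on U74Av2, with a difference of 0.02 ± 0.21. The licensing factor Cdc6 (-0.04), the checkpoint kinase gene Chek1 (0.03) and the flap endonuclease gene Fen1 (0.11) also had log2 differences near 0. The remaining S phase genes, namely Cdc45, Rrm1, Tk1, Prim1, Pola1 and Lig1, had combined log2 differences from -0.31 (Rrm1) to -0.10 (Cdc45), none past the threshold. Prim1, the small subunit of primase, read 304 and 329.6 in the controls and 192 and 331 with PD169316 on U74A, and 266 and 283 against 284 and 222 on U74Av2. Its groups overlapped in both versions. Tk1, which makes thymidine monophosphate, read 869 and 694 against 811 and 643 on U74A and 929.5 and 1021 against 812 and 989 on U74Av2, with overlap in both versions. Cdc45 with PD169316 read 494 and 418 on U74A and 403 and 449.7 on U74Av2.

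Among G1 genes no common direction was seen. Ccne1, the cyclin that activates Cdk2 at the G1/S transition, read 931 and 653 in the controls and 336 and 722 with PD169316 on U74A. On U74Av2 it read 956 and 924 against 507 and 758, so the groups were apart on U74Av2 and overlapped on U74A. Its combined log2 difference was -0.63 ± 0.27 (adjusted p = 0.303, limma). Ccnd1 (cyclin D1) read 563 and 517 against 467 and 791 on U74A and 878 and 709.9 against 511 and 558 on U74Av2, and its U74A arrays disagreed with each other. The difference was -0.20 ± 0.24. Ccnd3 (cyclin D3) read 728 and 1060.1 against 1021 and 1002 on U74Av2, a difference of 0.20 ± 0.28, within the spread of its controls.

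Ccnd2 (cyclin D2) was dim, at 89.9 and 79.6 in the controls and 160.3 and 353 with PD169316 on U74A, and 106 and 30.6 against 194 and 55.7 on U74Av2. Its U74A signals reached the filter on the treated arrays alone, so no difference is read from them. On U74Av2 each treated array was above the control of its own pair, by 0.87 (day 3) and 0.80 (day 5). These are on the log2 scale, where signals under 32 were set to 32. Across pairs the U74Av2 groups overlapped. Cdk4 read 510.3 and 515 against 586 and 634 on U74A and, through another probe set, 3724 and 4085 against 3599 and 3813 on U74Av2. The shared probe set gave 0.17 ± 0.22, and the brighter U74Av2 set gave -0.07, so the probe sets disagreed in sign. E2f1, the activating E2F factor, read 76.2 and 124 against 139.5 and 137 on U74A. Through another probe set it read 131 and 195 against 216 and 139.7 on U74Av2. Its signals were near the filter in both versions. Cdk2 read 308 and 379 against 206 and 296 on U74A and 473 and 349 against 326 and 404 on U74Av2, apart in the first version only. It had a combined difference of -0.31 and the phosphatase gene Cdc25a one of -0.29.

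Of the mitotic genes, Cdc20 had the smallest p. Cdc20 activates the anaphase-promoting complex, the ligase that marks cyclin B and securin for destruction. It read 6144 and 4652 in the controls and 3883 and 2959.7 with PD169316 on U74A, and 5742 and 7109.6 against 3002 and 5460.4 on U74Av2. Treated and control arrays did not overlap in either version. The combined log2 difference was -0.66 ± 0.21 (adjusted p = 0.16, limma). With the replicate block the SE was 0.16 and the adjusted p 0.0211, so Cdc20 fell by 0.66 on the log2 scale in that fit, and with the correlation between versions allowed for as well the adjusted p was 0.155. Without the second treated array of U74Av2 the difference was -0.87 (adjusted p = 0.0329 by limma), and without the day 3 controls it was -0.63 (adjusted p = 0.563).

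Plk1, a kinase needed for mitotic entry and spindle assembly, read 1378 and 1969 in the controls and 1192 and 1012 with PD169316 on U74A, and 1676 and 2326 against 1358 and 1752 on U74Av2. The groups were apart on U74A and overlapped on U74Av2, with each treated array below the control of its own pair, and the combined difference was -0.47 ± 0.22 (adjusted p = 0.424, limma). A dimmer Plk1 set read 1451 and 444 against 710 and 650 on U74A, with overlap and a rise in the day 2 pair. On U74Av2 that set read 1038 and 1303 against 715 and 985. Another dim set, on U74Av2 only, read 710 and 627 against 547 and 325. Both were lower there without overlap. Top2a, the topoisomerase that untangles sister chromatids, read 1060.2 and 1296 against 678 and 619 on U74A but 869 and 1054 against 814 and 1159 on U74Av2, so a clear gap in U74A was not seen in the other version (-0.42 ± 0.22). Cdk1, the kinase of mitotic entry, read 2955 and 3098 against 2285 and 1974 on U74A and 2491 and 2335 against 2289.6 and 2338 on U74Av2, with a difference of -0.29 ± 0.18. The versions again differed, since the gap was present on U74A only. Ccna2, the cyclin of S phase and G2, read 1103 and 1478 against 1475 and 1246 on U74A and 1745 and 1439.8 against 1265 and 1414 on U74Av2 (-0.08 ± 0.20). The proliferation marker Mki67 read 501 and 428 against 569.9 and 487 on U74A and 482 and 421 against 377 and 591 on U74Av2 (0.13 ± 0.25). Both genes overlapped between treated and control arrays in at least 1 version.

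Some mitotic genes lay on the other side. Birc5 (survivin, a subunit of the chromosomal passenger complex) read 622 and 581 in the controls and 814 and 712 with PD169316 on U74A, and 598 and 637 against 921 and 718 on U74Av2. All treated arrays were above the controls of their version, with a combined difference of 0.37 ± 0.22 (adjusted p = 0.552, limma). Aurkb, the kinase of the same complex, read 494 and 777 against 420.5 and 699.6 on U74A and 237 and 246 against 513 and 405 on U74Av2. The same probe set was thus higher with treatment on U74Av2 (0.92 ± 0.30, adjusted p = 0.377, limma) and overlapped with the controls on U74A (-0.19 ± 0.43), and its combined value of 0.36 averages readings of opposite sign. Of the other mitotic genes, the spindle checkpoint gene Mad2l1 was at -0.45, the kinase gene Aurka at -0.39, the checkpoint kinase gene Bub1 at -0.37 and the mitotic kinesin gene Kif11 at -0.18. Ccnb2, the cyclin B that was measured, read 2554 and 4182 in the controls and 2829 and 2782 with PD169316 on U74A, and 2854 and 3361 against 3172 and 2777 on U74Av2, and its groups overlapped in both versions. Cks2, a small CDK-binding protein, read 2752 and 3942 against 3089.9 and 4733 on U74A and 2745 and 3151 against 2926 and 3346 on U74Av2, higher within each pair. The log2 differences of Ccnb2 (-0.14), Bub3 (-0.02), Plk4 (0.10), Wee1 (0.13) and Cks2 (0.15) lay closer to 0.

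Within a single version 0 genes passed for PD169316, by limma, on U74A (0.0176% of all probe sets did) or on U74Av2 (0.128%). At an unadjusted p of 0.05 there were 3 lower genes (2.13% of all probe sets) and 0 higher (2.52%) on U74A, and 2 lower (3.4%) and 1 higher (4.95%) on U74Av2. Treated arrays of S1 lay below both controls for 15 of 40 genes on U74A (37.5%, against 14.7% of all probe sets) and for 9 of 41 on U74Av2 (22%, against 18%). They lay above both for 4 of 40 (10%, against 18.7%) and 4 of 41 (9.76%, against 19.8%). Ccnd2 is among the 4 of U74A, although it passed the filter there through its treated arrays alone. Half-widths of the 95% intervals had a median of 0.81 on U74A and 0.618 on U74Av2 on the log2 scale, which is a median over genes and not a limit that holds for each.

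Sums of cell type markers also differed between these samples. The summed signal of 8 ES cell markers (Pou5f1, Sox2, Nanog, Utf1, Zfp42, Tdgf1, Fgf4 and Dppa5a) was 20936 and 15486 in the S1 controls of U74A and 12909 and 10119 with PD169316, and it was 37400.0 and 38591 against 24961 and 27978 on U74Av2. It was 18187 with SB203580 on U74A and 29492 and 25612 on U74Av2, and 11748 and 12326 in control and treated D4 cells. Nanog and Dppa5a were listed at 0 on all U74A arrays, and all 8 markers had signal on U74Av2. Of the 6 ES markers tested in both versions 3 fell with PD169316 by the combined limma test, namely Tdgf1, Fgf4 and Utf1, where 1.88% of all probe sets passed. The others did not pass that test: Pou5f1 (-0.57 ± 0.20, adjusted p = 0.223), Sox2 (-0.09 ± 0.19, adjusted p = 0.905) and Zfp42 (0.14 ± 0.29, adjusted p = 0.919). With the correlation between the versions allowed for, 0 of the 6 passed (adjusted p = 0.139 for Tdgf1, 0.152 for Fgf4 and 0.221 for Utf1), although 3 did when the replicate block was added to that setting. Their count was 0 without the day 3 controls, and 0 to 3 with single arrays left out (0 without the second U74Av2 control or the first PD169316 array of either version).

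The summed signal of 7 endoderm markers was 588 and 1679 in the S1 controls against 1891 and 1642 with PD169316 on U74A, and 1210.1 and 1083 against 1807 and 1326 on U74Av2. The collagen gene Col4a1 took the largest share of the treated sums. It read 239 and 416 against 891 and 1047 on U74A and 148 and 243 against 936 and 473 on U74Av2, and it rose by the combined limma test (1.71 ± 0.29, adjusted p = 0.00317, and 0.0636 with the correlation between the versions allowed for). The other 3 endoderm markers tested in both versions did not pass by that test. They were Lama1 (0.81 ± 0.33, adjusted p = 0.303), Gata4 (0.27 ± 0.67, adjusted p = 0.982) and Dab2 (-0.81 ± 0.42, adjusted p = 0.512). Without the day 3 control arrays the differences were 1.335 for Col4a1, 0.26 for Lama1, 0.40 for Gata4 and -1.15 for Dab2. Lama1 read 167 and 427 against 475 and 365 on U74A, with overlap. It read 148.5 and 265 against 513 and 299 on U74Av2, where both treated arrays were higher. Gata4 read 25.3 and 42.6 against 346 and 34.4 on U74A. On U74Av2 Gata4 read 316 and 166 against 86.3 and 147, Sox17 109.5 and 107 against 45.1 and 79.7 and Dab2 289 and 202 against 170.1 and 194, all lower on the treated arrays. In D4 the endoderm sum was 1302 in the control and 1380.1 with PD169316. That of 6 fibroblast markers was 187 to 743 on the S1 arrays of U74A and 686 to 1198 on U74Av2, without a common direction, and 776 and 929.5 in control and treated D4 cells. Eomes, the 1 of 3 primitive streak markers with a probe set, read 18.4 to 106 on S1 arrays, but 382 in the D4 control against 13.4 with PD169316. The part of these shifts in the cell cycle values was not tested, and in such bulk RNA fewer cells of a type and less RNA per cell cannot be told apart.

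The second comparison concerns SB203580, the other p38 inhibitor at the same dose. Its values did not follow the same lines: S phase genes were divided, and mitotic genes were mostly higher than in the controls. With both versions combined, 25 of 39 genes were higher (median 0.05), among them 13 of 17 mitotic genes, 9 of 16 S phase genes and 3 of 6 G1 genes, where 50.5% of all probe sets were lower. The versions differed. On U74A 25 of 40 were higher, with 11 of 16 S phase genes (median 0.14) and 10 of 17 mitotic genes (median 0.07). On U74Av2 21 of 41 were higher, with 6 of 16 S phase genes (median -0.20) and 12 of 17 mitotic genes (median 0.19). Of all probe sets 52% and 52.9% were lower in these versions. None of the 39 passed the combined limma test, and 0% of all probe sets did. At an unadjusted p of 0.05, 3 genes were higher, where 2.12% of all probe sets were, and 0 were lower, where 2.51% were. In all 3 pairs of arrays 12 of 39 genes were higher (30.8%, against 16.1% of all probe sets; Cdk4 is among them by its shared probe set, while the brighter U74Av2 set had a log2 ratio of -0.02 in the day 4 pair) and 4 were lower (10.3%, against 15.4%). SB203580 had 1 array on U74A, which the fit assumed to vary like the others, and without the day 3 control arrays the mitotic median on U74A was -0.12 instead of 0.07.

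Plk4, the kinase that starts centriole duplication, had the smallest p. It read 475 and 453 in the controls and 876 with SB203580 on U74A, and 691 and 543 against 1187 and 1160.4 on U74Av2. All 3 treated arrays were above every control of their version. The combined log2 difference was 0.93 ± 0.26 (adjusted p = 0.52, limma), between 0.84 and 1.03 in the 20 other settings tried. Birc5 read 996 with SB203580 on U74A and 1062 and 845 on U74Av2, above the control values given before, with a difference of 0.67 ± 0.25 (adjusted p = 0.903, limma). Rrm2 read 1414 on U74A and 1397 and 1435 on U74Av2, again above all controls, with a difference of 0.57 ± 0.24 (adjusted p = 0.986, limma). Aurkb read 645 and 645 on U74Av2, 1.42 ± 0.30 above its controls (unadjusted p = 0.00051, adjusted p = 0.719, limma), but 345 on U74A, -0.85 ± 0.52 relative to its controls, so the versions went opposite ways as with PD169316.

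The S phase genes that were lower with SB203580 in all 3 pairs were Cdc45, Mcm3, Mcm4 and Mcm5. Cdc45, which joins the Mcm ring to form the active helicase, read 379 and 529 in the controls and 260.4 with SB203580 on U74A, and 548 and 447 against 379 and 373 on U74Av2. The groups did not overlap, and the combined difference was -0.59 ± 0.28 (adjusted p = 0.995, limma). Mcm4 read 1379.9 on U74A and 1366 and 1411 on U74Av2, with a difference of -0.45 ± 0.24 (adjusted p = 0.995, limma). Mcm5 read 3984 on U74A and 4849 and 5053 on U74Av2, with a difference of -0.42 ± 0.23 (adjusted p = 0.995, limma). Both were below all controls of their version, as was Mcm3, at 1202 on U74A and 2366 and 2268 on U74Av2. Mcm2 read 2394 on U74A and 2426 and 3224 on U74Av2 (0.04) and Mcm7 3149 on U74A and 3183 and 1969.6 on U74Av2 (-0.14), both within or across the control values.

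Among the other genes, Pcna read 2940.4 with SB203580 on U74A and 3141 and 2331 on U74Av2 (0.28), and Ccna2 1392 on U74A and 1546 and 1497 on U74Av2 (0.03). Cdk1 read 2582 on U74A and 2771 and 2726 on U74Av2 (-0.02), Plk1 1808 on U74A and 1914 and 2692 on U74Av2 (0.17) and Top2a 916 on U74A and 1028 and 1114 on U74Av2 (-0.10). None of these stood apart from the controls in the same direction in both versions. Ccnd1 read 785 on U74A and 710.0 and 701 on U74Av2 (0.19) and Ccne1 558 on U74A and 947 and 1092 on U74Av2 (-0.18). Ccnd2 stayed dim at 56.8 on U74A and 24.2 and 29.4 on U74Av2, Ccnd3 read 883 and 736 on U74Av2, E2f1 123 on U74A and 116 and 168 on U74Av2, Cdk4 721 on U74A and 4293 and 4018 on U74Av2, and Mki67 486 on U74A and 500.1 and 394 on U74Av2. Cdk2 read 273 on U74A and 356 and 400.1 on U74Av2, Prim1 341 on U74A and 256 and 191 on U74Av2, Tk1 1173 on U74A and 1252 and 658 on U74Av2, and Cks2 3313 on U74A and 3712 and 3152 on U74Av2.

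**Figure D4:**
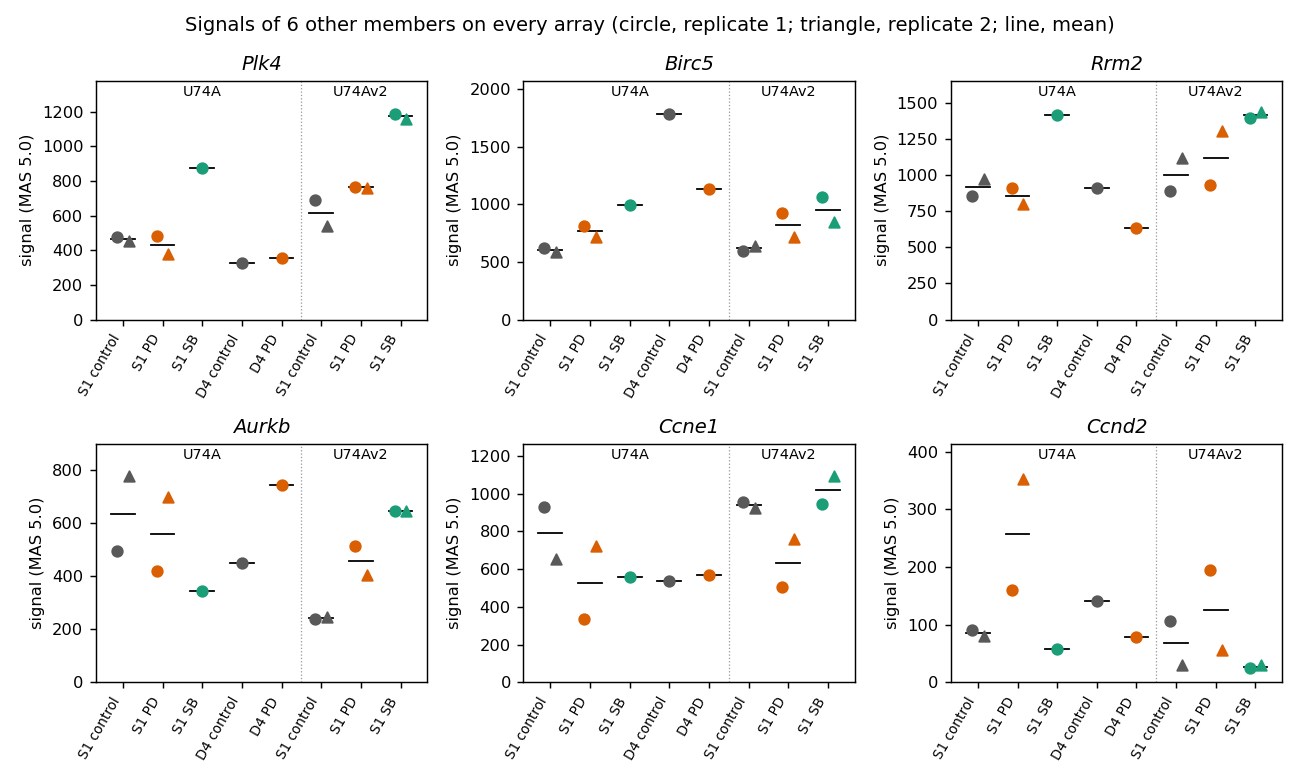
Signal (MAS 5.0 intensity, linear vertical axis from 0) of Plk4, Birc5, Rrm2, Aurkb, Ccne1 and Ccnd2 on each array, by line and treatment (horizontal axis; PD, PD169316; SB, SB203580), with U74A left and U74Av2 right of the dotted line and short lines at group means. Plk4 with SB203580 lies at 876 on U74A and at 1187 and 1160.4 on U74Av2, above all controls, and Aurkb with SB203580 lies above its controls on U74Av2 and below them on U74A.

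The compounds were also set against each other directly, as 1 pair at the matched dose of 10 µM and the matched time of 3 days. They are related pyridinyl imidazoles: SB203580 bears a methylsulfinyl group at the para position of a phenyl ring where PD169316 bears a nitro group. Cell cycle genes were lower with PD169316 than with SB203580 for 33 of 39 genes in the combined test (median log2 difference -0.32), where 46.3% of all probe sets were lower and their median was 0.04. The counts were 15 of 16 for S phase genes, 13 of 17 for mitotic genes and 5 of 6 for G1 genes. The versions differed for S phase genes. On U74A, with 1 SB203580 array, 15 of 16 were lower (median -0.59). On U74Av2, with 2 against 2 arrays, 10 of 16 were lower (median -0.08), where 45.2% of all probe sets were. Of the mitotic genes 14 of 17 were lower on U74Av2 (median -0.25), and of the G1 genes 5 of 8 (median -0.11). Both differences from control use the same control arrays, and the direct comparison shares its treated arrays with both. None of the 39 passed the combined limma test, which 0.689% of all probe sets passed. At an unadjusted p of 0.05, 6 genes were lower, where 4.36% of all probe sets were, and 1 was higher, where 6.37% were.

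Cdc20 had the smallest p of the direct comparison. It read 3883 and 2959.7 with PD169316 and 5236 with SB203580 on U74A, and 3002 and 5460.4 against 6778 and 8957 on U74Av2, with no overlap in either version. The combined log2 difference was -0.79 ± 0.24 (adjusted p = 0.14, limma), and the 95% interval on U74Av2 ran from -1.57 to -0.32. Cdc20 passed with hybridization day as a block (-0.73, adjusted p = 0.0434 by limma) and without the second PD169316 array of U74Av2 (-1.0, adjusted p = 0.0359). Plk4 read 482 and 381 against 876 on U74A and 768 and 759 against 1187 and 1160.4 on U74Av2. It was lower on every PD169316 array, by -0.83 ± 0.26 (adjusted p = 0.174, limma). Cdc25a, the phosphatase that activates CDKs, read 803 and 485 in the controls, 554 and 464 with PD169316 and 848 with SB203580 on U74A. On U74Av2 it read 796 and 820.3, 674 and 661 and 939 and 1274 in that order. The PD169316 arrays were the lowest and the SB203580 arrays the highest of U74Av2, and the compounds differed by -0.73 ± 0.28 (adjusted p = 0.228, limma).

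Plk1 (-0.64 ± 0.25, adjusted p = 0.289), Mcm2 (-0.50 ± 0.22, adjusted p = 0.398) and Rrm2 (-0.55 ± 0.24, adjusted p = 0.434) were the other genes lower with PD169316 at an unadjusted p of 0.05 by limma. Ccnd2 was the 1 gene on the other side at that p, but with SB203580 it read under the filter on all 3 arrays and on 2 of them under the floor of 32, so no size is given for it. Cdc45 (0.49, adjusted p = 0.615) and Mki67 (0.10, adjusted p = 0.921) were also higher with PD169316 by point estimate. For Mcm3, Mcm4 and Mcm5 the compounds were not told apart: on U74Av2 the 95% intervals of PD169316 minus SB203580 ran from -0.42 to 0.58 for Mcm3, from -0.31 to 0.78 for Mcm4 and from -0.79 to 0.10 for Mcm5. Those intervals leave room for a difference either way and do not show that the compounds act alike.

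**Figure D5:**
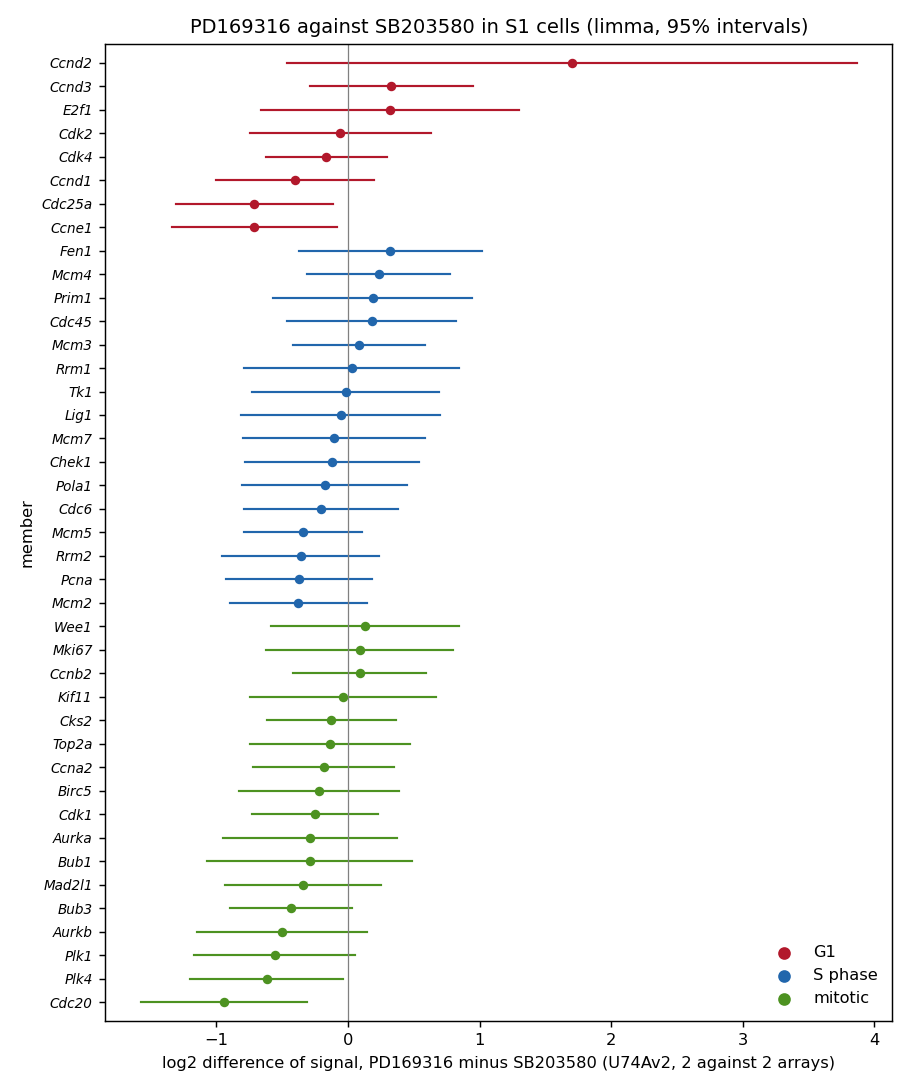
Log2 difference of signal, PD169316 minus SB203580 (horizontal axis), for the 41 genes tested on U74Av2 (vertical axis), coloured by group, with points at the fitted difference of 2 against 2 arrays and lines at its 95% interval from limma. Intervals of Cdc20, Cdc25a, Ccne1 and Plk4 lie below 0 before any adjustment for the number of probe sets, and all others include 0.

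In D4 cells PD169316 had 1 treated and 1 control array, so its ratios have no test of their own. S phase genes were lower with treatment here too: 15 of 16, with a median log2 ratio of -0.56, where all probe sets tested had a median of -0.01 and 50.6% were lower. Of the G1 genes 4 of 7 (median -0.09) and of the mitotic genes 11 of 17 (median -0.16) were lower. The G1 count includes Ccnd2 and E2f1, and the G1 median is the ratio of E2f1 itself. E2f1 was under the filter on both D4 arrays and Ccnd2 on the treated one, so no G1 direction is read from them. Mcm2 read 2163 in the control and 1371 with PD169316, Mcm4 1439 and 972, Mcm5 5788 and 3597, and Mcm7 3177 and 2298. Mcm3, at 937 and 1064, was the S phase gene that was higher. Pcna read 2822 and 2172 and Rrm2 908 and 637.

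The genes with the lowest D4 ratios were Cdk2, at 335 in the control and 185 with PD169316, Ccnd2, at 141 and 78.2, and Prim1, at 378 and 213. Those with the highest were Aurkb, at 451 and 744, Mki67, at 409.7 and 648, and Cks2, at 3149 and 4276. On U74A Ccnd2 reached the filter only in the D4 control and on the treated S1 arrays. No difference is read from its D4 ratio, and the lines are not compared for it. Cdc20 read 4446 and 4055, a log2 ratio of -0.13. Plk1 read 1437 and 1183, Cdk1 2143 and 2507, Ccna2 1157 and 998, and Plk4 327 and 355. Ccnd1 read 640.1 and 862, Ccne1 535 and 566, Cdk4 739.6 and 748 and E2f1 49.5 and 46.5. Cdc45 read 387 and 285, Cdc25a 695 and 545, and Ccnb2 3029.5 and 2721. The log2 ratios of D4 thus ran from -0.86 (Cdk2) to 0.43 (Ccnd1) among G1 genes and from -0.78 (Bub1) to 0.72 (Aurkb) among mitotic genes.

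A fit of PD169316 over both lines on U74A, with the line as a term, used 3 control and 3 treated arrays. All 16 S phase genes tested were lower, with a median log2 difference of -0.39, where 47.8% of all probe sets were lower. By limma 0 of the 40 genes passed the adjusted threshold, which 0.193% of all probe sets passed, while 4 were lower at an unadjusted p of 0.05 (2.89% of all probe sets were) and 0 were higher (3.94%). The 4 were Mcm4 (-0.86 ± 0.25, adjusted p = 0.343), Mcm7 (-0.71 ± 0.23, adjusted p = 0.425), Mcm5 (-0.72 ± 0.24, adjusted p = 0.48) and Mcm2 (-0.63 ± 0.23, adjusted p = 0.544). They are subunits of 1 complex, and their 95% intervals ran from -1.39 to -0.32 for Mcm4 and from -1.12 to -0.14 for Mcm2.

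Whether the PD169316 ratio differed between the lines was tested as an interaction. By limma 0 of 40 genes and 0% of all probe sets passed, and at an unadjusted p of 0.05 there were 0 lower (1.45% of all probe sets) and 0 higher (0.949%). The smallest p values were those of Top2a, which read 730.5 and 983 in D4 (1.28 ± 0.58, the D4 ratio minus the S1 ratio), and of Ccnd2, which reached the filter only in the D4 control and on the treated S1 arrays and is given no size. Mcm3 (0.85) and Cdk1 (0.74) followed among the positive values, and Birc5 (-1.0) and Tk1 (-0.56) among the negative ones, all with adjusted p values that round to 1. Tk1 read 1010.4 and 639 in D4. The 95% intervals of the members had a median half-width of 1.42.

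Between the lines, with treatment allowed for, 0 of 40 genes and 0% of all probe sets passed by limma. Birc5 read 1786 in the D4 control and 1129.7 with PD169316, where S1 arrays without SB203580 read between 581 and 814. Every D4 reading was above these, and the line difference was 1.07 ± 0.30 (unadjusted p = 0.00353, adjusted p = 0.618, limma). It was the 1 gene higher in D4 at an unadjusted p of 0.05 (3.06% of all probe sets were) and 0 were lower (3.25%). E2f1 read under the filter in both D4 arrays and is given no size. Cdc45 (-0.44) and Plk4 (-0.39) were lower in D4 by point estimate, while Cdk4 (0.41) and Ccnd1 (0.37) were higher. Every D4 array was hybridized on a day with no S1 array, so line and day cannot be told apart.

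Other genes of the same machinery were looked at as lists. Of 20 further replication factors tested in both versions, 18 were lower with PD169316 in S1 (median log2 difference -0.13), where 47.3% of all probe sets were. Of the 18, 3 were at an unadjusted p of 0.05, where 5.35% of all probe sets were, with 0 called by the combined limma test, where 1.88% were. They were Rpa2 (-1.23 ± 0.40, adjusted p = 0.0935), a subunit of the single-strand DNA binding complex, and Rfc5 (-0.56 ± 0.22, adjusted p = 0.269) and Rfc1 (-0.53 ± 0.23, adjusted p = 0.368), which load the clamp. On U74A over both lines 20 of 21 were lower (median -0.33), where 47.8% of all probe sets were. In S1 on U74Av2 alone 15 of 25 were lower (median -0.06), where 49.9% of all probe sets were. With SB203580 the same list was even, 10 of 20 lower, and 1 was at an unadjusted p of 0.05 (2.51% of all probe sets were). That was again Rpa2, with the lowest value of the list (-1.83 ± 0.47, unadjusted p = 0.00527, adjusted p = 0.69, limma), and the compounds were not told apart for it (0.60 ± 0.47, PD169316 minus SB203580, adjusted p = 0.981). On U74Av2 alone, with 2 SB203580 arrays, 0 of 25 genes of the list were at that unadjusted p, and U74A had 1 such array. Further mitotic genes were divided, with 11 of 25 lower under PD169316 (median 0.05), and Kif4, a chromosome-bound kinesin, was the 1 at an unadjusted p of 0.05 (0.64 ± 0.27, adjusted p = 0.313), where 6.3% of all probe sets were higher. With SB203580, 13 of 25 were lower, and 2 of these were at an unadjusted p of 0.05 (2.51% of all probe sets were), namely Foxm1 (-0.72 ± 0.27, adjusted p = 0.892) and Mybl2 (-0.52 ± 0.22, adjusted p = 0.921), both factors for mitotic gene expression. Of 4 CDK inhibitor genes 3 were higher with PD169316 (median 0.23), among them Cdkn2a at 1.04 ± 0.55 (adjusted p = 0.504), with 0 at an unadjusted p of 0.05. Within a version 2 of 4 were higher on U74A (median 0.11) and 2 of 5 on U74Av2 (median -0.07), so no common direction was seen. Of 3 RB and E2F partners 2 were lower in the combined values (median -0.10), where 47.3% of all probe sets were. No gene of these 4 lists passed the combined limma test in any S1 comparison, as 1.88% of all probe sets did for PD169316, 0% for SB203580 and 0.689% for the direct comparison.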

How the data were processed

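The arrays measured total RNA of mouse ES cells. Each deposited value is the intensity of a probe set. Per the labels, the authors obtained it with Microarray Suite 5.0 and brought every array to a target intensity of 300 by global scaling. The U74A and U74Av2 tables were scaled separately, so tests stayed within a table. No genome build is used by these files.

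Log2 was taken of the signals after raising those below 32 to 32, which understates differences of dim genes. Affymetrix control spots were left out. A probe set entered a fit when 2 or more of its arrays had a signal of 100 or more. The two-sided tests used R 4.3.3 with limma 3.58.1 (linear models, then eBayes with its trend option), and Benjamini-Hochberg adjustment ran over every probe set tested, with 0.05 as the threshold. Spread was estimated jointly over the S1 groups of a table, which assumes that a lone array varies as the rest do. The combined test adds the z scores of a probe set in the 2 tables, scales the sum to unit variance as if they were independent, and reports the mean of the 2 log2 differences. The scripts were tested on simulated data.

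Groups came from the sample titles. Nothing in the labels says that replicates came from separate cultures: p-values reflect the spread between these samples only, which may be technical, and precision is limited by the number of arrays. Same-numbered S1 control and PD169316 arrays share a hybridization day in the deposited experiment records, so the number pairs them. Their deviations from the group means correlated at 0.208 on U74A and 0.179 on U74Av2, against 0.0802 for control and SB203580 arrays on U74Av2, whose second pair spans 2 days. The replicate block was fitted as an alternative, as were hybridization day, quantile normalization, other floors and filters, no intensity trend, the mean of a gene's probe sets, a variance raised for the correlation of the tables (z scores correlated at 0.429 for PD169316) and leaving out each array.

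Gene symbols are those of the platform annotation and may be old: on U74A 10298 had 1 symbol, 363 several and 1993 none, and on U74Av2 10855, 396 and 1237. Promoter windows came from RefSeq (GRCm38.p6) by symbol, for 40 of the 46 genes. The members and the other lists were chosen with earlier results of these data known, so a list is described by counts and its median and has no test. Genes given with every array were those chosen for their role (Ccnd1, Ccnd2, Ccnd3, Ccne1, Ccna2, Ccnb1, Cdk4, E2f1, Mcm2 to Mcm7, Pcna, Rrm2, Cdk1, Plk1, Plk4, Mki67 and Top2a, less Ccnb1, which has no probe set, and with a range for Mcm6 on U74Av2) and, for each comparison and for the D4 ratio, the 3 in each direction with the smallest p or, in D4, the largest ratio.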

Additional observations from a re-analysis of the deposited data

How the results depend on the processing

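The count of members past the threshold was 0 in every comparison of the report. For PD169316 against control in S1 with both tables combined it became 2 (Mcm5 and Cdc20) with the replicate block and 2 with hybridization day as a block, and it ranged from 0 to 1 when single arrays were left out. With the replicate block and the variance raised by the correlation of the tables it was 0. The block changed no other call of a member. For PD169316 against SB203580 combined it became 1 (Cdc20) with the day block and ranged from 0 to 1 when single arrays were left out. In the other comparisons it stayed 0 under every alternative run. For Mcm5 the adjusted p ranged from 0.0271 to 0.772 and for Cdc20 from 0.00968 to 0.683 over 23 alternatives, with the log2 difference below 0 in all of them.

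Medians of small groups moved most. For PD169316 in D4, the G1 median was -0.35 with the mean of each gene's probe sets. For PD169316 in S1, the G1 median on U74A was -0.30 with a minimum signal of 200 and from -0.19 to 0.17 with single arrays left out, and the S phase median on U74Av2 ranged from -0.29 to 0.024 with single arrays left out. For SB203580 the G1 median on U74A was 0.20 with the day block, 0.44 with a minimum signal of 200, -0.0023 without the day 3 control arrays and from -0.0023 to 0.39 with single arrays left out. On U74Av2 it was -0.0073 with a minimum signal of 200, 0.024 without the day 3 controls and from -0.12 to 0.090 with single arrays left out. The SB203580 mitotic median was -0.12 on U74A without the day 3 controls, from -0.12 to 0.27 there with single arrays left out, and from 0.12 to 0.30 on U74Av2. The SB203580 S phase median on U74Av2 was 0.067 with the day block and from -0.30 to -0.019 with single arrays left out. The Mki67 difference for PD169316 against SB203580 turned to -0.060 without the second PD169316 array of U74Av2 and ranged up to 0.26 with other arrays left out. The cause was not tested in any of these. Leaving out the day 3 controls, and the replicate block with the raised variance, were chosen after seeing the data.

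Over all probe sets the counts past the threshold depended on the setting: from 1 to 254 for PD169316 combined, against 101 in the report, from 3 to 129 for PD169316 against SB203580 combined, against 37, and from 0 to 13 for SB203580 combined, against 0. For PD169316 within a table they ranged from 0 to 10 on U74A, against 1, from 0 to 160 on U74Av2, against 9, and from 0 to 31 with both lines, against 12. For the difference between the lines the count was 0 in the report and 403 with no signal filter, and 0 under the other alternatives. With no signal filter it was also 74 for SB203580 on U74A and 73 for PD169316 against SB203580 on U74A, against 0 for each. On U74Av2 it ranged from 0 to 15 for SB203580, against 0, and from 0 to 56 for PD169316 against SB203580, against 3.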
